A study of Sus scrofa with 4 samples.

Results

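The immediate-early transcription factors of the FOS, JUN and EGR families were followed over 4 porcine oligonucleotide arrays, 1 for each of 4 conditions. Of 10 genes sought (FOS, FOSB, FOSL1, FOSL2, JUN, JUNB, JUND, EGR1, EGR3 and ATF3), exact gene names on the array gave 3, FOS with 4 probes and EGR1 and EGR3 with 1 probe each, or 6 of 43603 probes and 3 of 34853 gene names. JUN was added through the RefSeq accession of a probe that the array names C-JUN, and through a further probe described as jun proto-oncogene, which brought the set to 4 genes and 8 probes. The other 6 genes, FOSB, FOSL1, FOSL2, JUNB, JUND and ATF3, were matched by neither name nor accession and were not analysed here.

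PIP cells are a preadipocyte line from the intramuscular fat of a pig, sampled without stimulation. The pMA were the same line after 4 days in a differentiation medium with insulin, dexamethasone, octanoate and oleate, also unstimulated. Stimulated pMA had received the same medium and then 12 h of either serotonin (100 µM in the methods, while the labels write the unit as µM/ml) or TNF-α (at 2.5 µg/mL). All conditions therefore came from 1 cell line, and the pMA and both stimulated groups shared the insulin and dexamethasone of the medium, while the PIP cells had neither. RNA was pooled within each condition before labelling, so that each value is 1 pool on 1 array and no difference has a replicate check or a p-value.

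FOS and JUN proteins pair through leucine zippers into AP-1, which binds DNA at short palindromic sites. FOS binds DNA in a pair, with a JUN protein or another leucine-zipper partner. EGR1 and EGR3 are zinc-finger factors that bind GC-rich sites. Their genes are classed as immediate-early because growth factors, cytokines and serum switch them on through MAP kinases, SRF and CREB without new protein synthesis, and their mRNAs usually decay soon after the peak. In fat cells the family is best known from the hours after preadipocytes meet a differentiation stimulus.

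The probes that carry the results are given first, each 5′ to 3′ as the scanner files hold it. For FOS, probe A_72_P441284 starts at base 769 of its target and the other 3 start at bases 1741, 1871 and 1892 of theirs. These bases are counted in each probe's own target and were not aligned between probes. The probe starting at base 769, and those for JUN (the C-JUN probe) and EGR1, are printed whole in lower case.
FOS A_72_P441284: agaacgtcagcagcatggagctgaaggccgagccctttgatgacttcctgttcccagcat
JUN A_72_P178031: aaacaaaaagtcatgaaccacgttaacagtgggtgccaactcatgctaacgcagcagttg
EGR1 A_72_P305874: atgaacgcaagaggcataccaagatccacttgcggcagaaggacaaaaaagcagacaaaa
The brightest FOS probes, A_72_P596714 and A_72_P205307, overlap in sequence by a run of 21 bases, so their readings are not separate evidence. A stretch of each is shown with the 21 shared bases in capitals.
FOS A_72_P596714: tggtctgaaGTTCTGACATTAACAGTTTTC
FOS A_72_P205307: tgaatGTTCTGACATTAACAGTTTTCcatg
Every probe was 60 bases long and was spotted 1 time. No probe of another gene on the array shared a run of 20 bases with any of the 8. The array files name no genome build, so no genome position is given.

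Each array held 43803 non-control spots, of whose probes 56.5% to 66.1% were well above background, the scanner software's flag for a spot that stands clear of its surroundings. Levels are log2 intensities minus the log2 of the array's 75th percentile of intensity, so that 0 is the 75th percentile and levels of different probes are not comparable. Spots of probes printed more than once, all well above background, had an SD of 0.10 to 0.13 (log2) within an array. A log2 ratio of 2 arrays thus had a technical SD of 0.15 to 0.17, which covers spotting and scanning only. Spike-in RNA was 0.38 lower (log2) on the pMA array than on the PIP array. The median log2 ratio of all gene names, pMA over PIP, was 0.12 with the 75th percentile as the reference, 0.04 after quantile normalization, -0.22 with the median and 0.52 with the spike-ins, and members are to be read against it.

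The adipocyte label was checked on 12 marker genes, all on the array. PIP cells had 9 well above background, pMA 9, pMA with serotonin 9 and pMA with TNF-α 10. CD36, CIDEC, PPARG and PLIN2 were higher in pMA than in PIP cells, while PLIN1, which coats the lipid droplets of mature fat cells, was not well above background in any condition, and ADIPOQ (adiponectin) was not in pMA or either stimulated group. FABP4 was at -4.76 (log2) in PIP cells, not well above background, -1.67 in pMA, -4.44 with serotonin and -0.23 with TNF-α. The brightest probes set a sum of levels, and with serotonin these were PLIN2 (4.42), LPL (3.41) and CD36 (2.65). The summed level of the 12 markers was 2.69 (log2) in PIP cells, 4.31 in pMA, 5.48 with serotonin and 4.74 with TNF-α. The 8 skeletal muscle markers had a summed level of 9.33, 9.36, 7.46 and 9.26 in that order, led by ACTA1, and MYOD1 and MYF5 were not well above background anywhere. The 7 measured preadipocyte or fibroblast markers summed to 9.73, 9.81, 9.23 and 9.56. Of 6 macrophage and leukocyte markers listed, the array held 2. CD14 was well above background in every condition and CD163 in none. Their summed level, 0.45, 0.92, 0.89 and 1.57, was nearly that of CD14 alone (0.44, 0.90, 0.88 and 1.56). The 5 endothelial markers summed to 0.67, 0.21, -1.05 and 0.21, with CDH5 and TEK not well above background anywhere. These lists moved with the conditions described next, and their part in the members' values was not tested. In cultures, a smaller share of cells of a type and less RNA per cell cannot be told apart.

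FOS, the partner that AP-1 gains when cells are stimulated, was highest in unstimulated pMA at all 4 probes. The intensity of its brightest probe, A_72_P596714, was 339.8 in PIP cells, 813 in pMA, 382 with serotonin and 553 with TNF-α. The overlapping probe, A_72_P205307, read 316, 710.2, 374 and 446. Both place serotonin-treated pMA next to PIP cells and TNF-α-treated pMA between these and unstimulated pMA. Probe A_72_P670145 read 189, 401, 190.5 and 260.2. The dimmest, A_72_P441284, read 25.3, 52.0, 32.6 and 43.9, only 0.78 to 1.58 (log2) above the faintest spot that was well above background on the same array. Its software error was 12.5% to 16.8% of the reading, against 10.0% to 10.2% for the other 3 FOS probes. In intensity the order pMA, TNF-α, serotonin, PIP held at all 4 probes. After scaling it held at 3, and at A_72_P670145 PIP cells, at -1.45 (log2), came before serotonin, at -1.57.

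JUN, the member that can form AP-1 alone or with FOS, was bright at the C-JUN probe, A_72_P178031. It read 22756 in PIP cells, 17380 in pMA, 13089 with serotonin and 16211 with TNF-α, so that it was highest in PIP cells and lowest with serotonin. The other probe, A_72_P569634, read 148, 173, 146 and 185. After scaling its highest level was that of pMA, at -1.47 (log2), followed by TNF-α at -1.60, PIP cells at -1.80 and serotonin at -1.95. After scaling the probes thus shared the order pMA, TNF-α, serotonin, with serotonin the lowest at both, and differed in the place of PIP cells. Steps between neighbours in the order of the C-JUN probe were 0.28 to 0.33 (log2), about 2 technical SD each.

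EGR1, a growth-factor-responsive activator, did not stand clear of background in PIP cells, where it read 9.47 with a software error of 41.5% of the reading. It read 53.2 in pMA, 59.5 with TNF-α and 85.9 with serotonin, each well above background. Serotonin thus had the highest EGR1 level, while pMA and TNF-α differed by 0.06 (log2) after scaling, less than the technical SD. EGR3, which is itself known as a target of other signal-induced factors, was measured by probe A_72_P407223 and read 8.49 in PIP cells, again not well above background. It read 54.2 in pMA, 24.6 with serotonin and 23.6 with TNF-α. Its pMA reading was the highest, and the readings under the 2 stimuli lay 0.04 (log2) apart. Each EGR gene rests on 1 probe near the lower end of the array's range, EGR3 at 0.60 to 1.49 above the faintest spot well above background where it was measured. After scaling that faintest spot was itself highest in pMA, at -4.64 (log2). It was at -5.13 in PIP cells, -5.12 with serotonin and -5.25 with TNF-α. How far this raised end of the pMA array moved the EGR ratios was not tested.

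**Figure D1:**
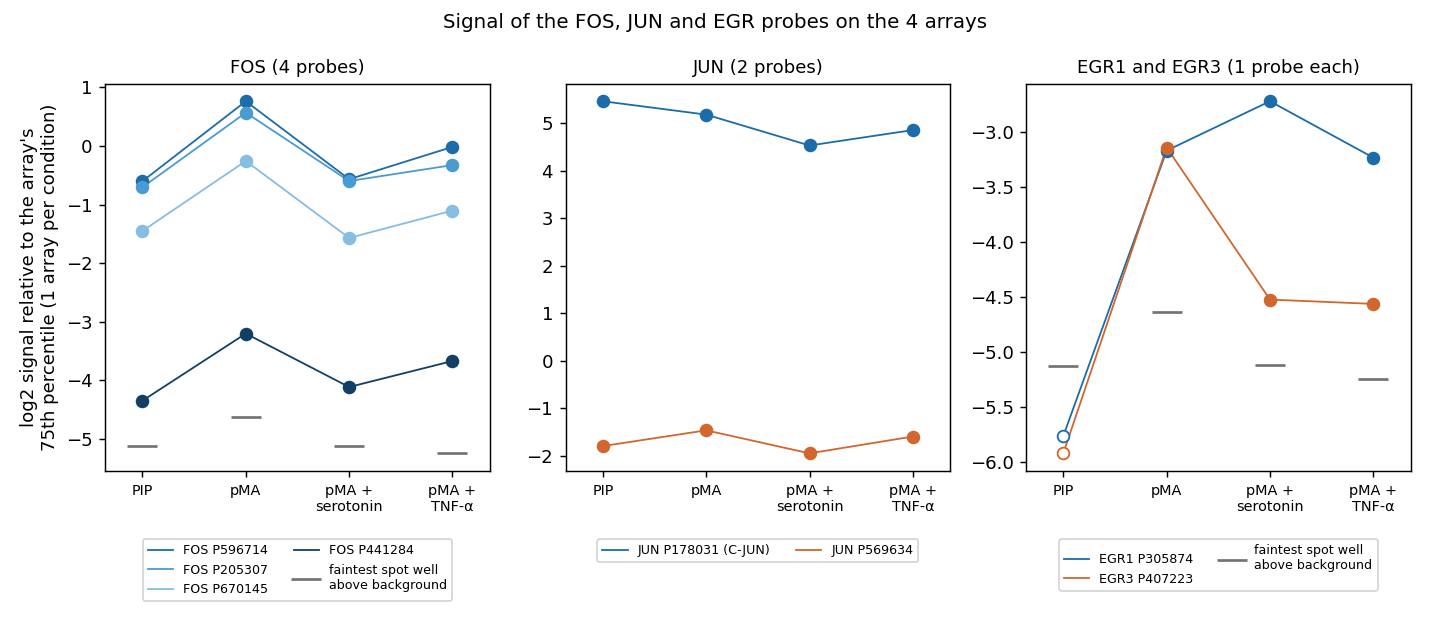
Level of each FOS, JUN and EGR probe on the 4 arrays, as log2 signal relative to the array's 75th percentile; filled circles are well above background, open circles are not, and grey dashes in the FOS and EGR panels mark the faintest spot that was. All 4 FOS probes peak in pMA, EGR1 is highest with serotonin, EGR3 is highest in pMA, and both EGR probes are open in PIP cells.

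The comparison of pMA with PIP cells asks what differs after 4 days of differentiation. FOS was 2.58-fold higher in pMA (log2 ratio 1.37), and its other probes gave 1.27, 1.19 and 1.15, so that all 4 passed the 2-fold cutoff of the study's methods. EGR1 was at least 3.89-fold higher and EGR3 at least 3.97-fold higher. These are bounds, in which the PIP reading is replaced by the faintest PIP spot that was well above background. JUN had a log2 ratio of -0.28 at the C-JUN probe and 0.33 at the other, so that no direction can be given for it. In all, 3 of the 4 genes measured were at least 2-fold higher in pMA and none was at least 2-fold lower, while over all 18635 gene names with a ratio 13.5% were at least 2-fold apart, 9.94% higher and 3.56% lower. Of these gene names, 4.42% had a ratio above that of FOS, 1.23% above the EGR1 bound and 1.16% above that of EGR3. FOS stayed between 1.02 and 1.74 over the processing alternatives. EGR1 and EGR3 did not reach 2-fold when the background was corrected by normexp, at 0.79 and 0.86.

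With another reference for the scaling the background itself moved. The 75th percentile put 1852 gene names higher and 663 lower in pMA (73.6% higher), quantile normalization 1061 and 881 (54.6%), the median 854 and 1647 (34.1%) and the spike-ins 4098 and 307 (93.0%). FOS, EGR1 and EGR3 were each at least 2-fold higher under all 4.

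Serotonin was compared with unstimulated pMA to find what the cells express after 12 h with it. FOS was 2.52-fold lower with serotonin (log2 ratio -1.33), with -1.31 and -1.17 at the probes next in size and -0.91 at the dimmest. EGR3 was 2.61-fold lower (-1.38). EGR1 lay in the other direction at 0.45, or 1.37-fold higher, which is under the 2-fold cutoff, was 0.03 after normexp correction and rests on 1 probe. JUN was at -0.65 and -0.48 at its probes, both lower and both under 2-fold. Thus 2 of the 4 genes were at least 2-fold lower and none was at least 2-fold higher, against 4.73% lower and 2.08% higher of 19098 gene names, or 6.82% in all. Ratios below those of FOS and EGR3 were held by 2.37% and 2.13% of gene names. EGR3 was at -0.79 after normexp correction, which removed it from the count.

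Set directly against PIP cells, serotonin-treated pMA had a FOS log2 ratio of 0.03, with 4 probes between -0.12 and 0.23, all within 2 technical SD of 0. EGR1 was at least 5.31-fold higher than in PIP cells, and EGR3 at least 1.52-fold higher. JUN was at -0.93 at the C-JUN probe and at -0.15 at the other.

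TNF-α, a cytokine known as an inducer of AP-1, was compared with the same unstimulated array, so that serotonin and TNF-α ratios share their denominator and cannot count as separate evidence about pMA. FOS was 1.72-fold lower with TNF-α (log2 ratio -0.78), and its 4 probes ran from -0.90 to -0.47 with none at 2-fold. EGR3 was 2.68-fold lower (-1.42). EGR1 was at -0.06 and turned to 0.02 with the spike-ins as the reference, and JUN was at -0.32 and -0.13. Only EGR3, 1 of the 4 genes, passed 2-fold, in the lower direction, against 1.34% lower and 2.21% higher of 19783 gene names and 3.56% in all. After normexp correction EGR3 was at -0.78 and none of the 4 passed. Only 0.308% of gene names had a ratio below that of EGR3. Compared with PIP cells, pMA with TNF-α kept FOS at 0.59, with 4 probes between 0.35 and 0.68.

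Of the gene names at least 2-fold apart after serotonin, 30.6% were higher, and 47.0% with the spike-ins as the reference. After TNF-α 62.2% were higher, and 49.3% after quantile normalization, 50.2% with the median and 73.7% with the spike-ins. The FOS, JUN and EGR3 directions under both stimuli were the same with each of these references.

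Serotonin and TNF-α were also set against each other, on arrays that share no sample. FOS was lower with serotonin at all 4 probes (log2 ratios -0.55 to -0.27), JUN at both (-0.35 and -0.33), EGR1 was 0.51 higher and EGR3 differed by 0.04. None reached 2-fold. The FOS difference at its brightest probe and the EGR1 difference, from 1 probe, were over 3 technical SD, while the overlapping FOS probe gave -0.27. That SD is taken from all repeated probes and covers no variation between cultures. The software error of the EGR1 spot was 11.1% with serotonin and 11.7% with TNF-α.

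**Figure D2:**
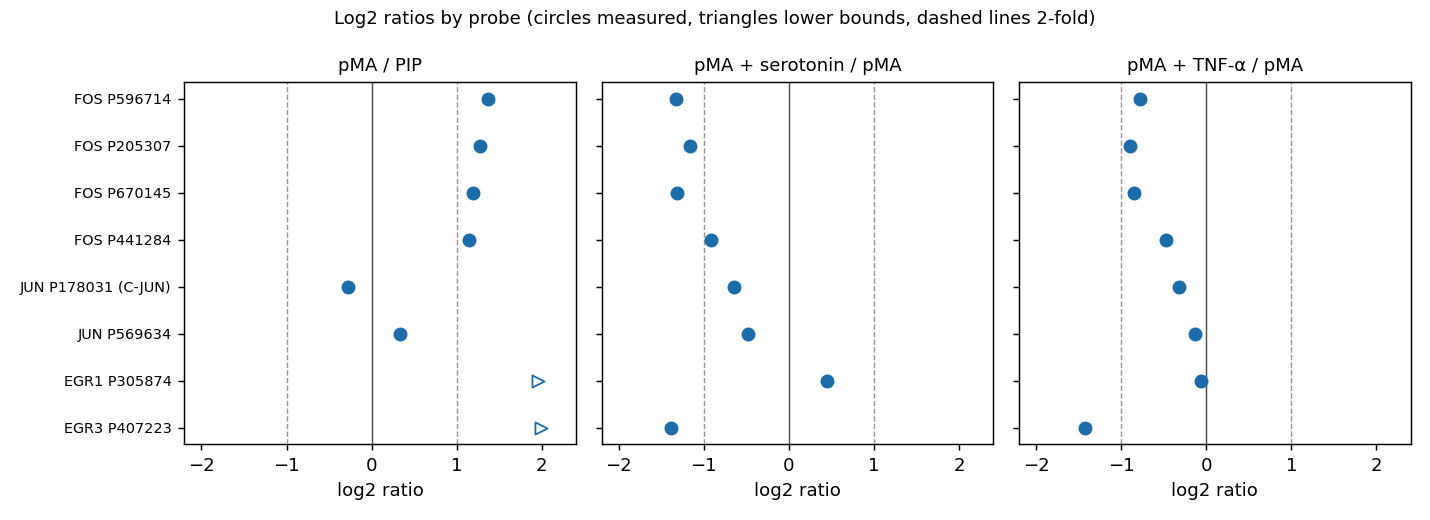
Log2 ratio of every member probe in the 3 comparisons; circles were measured on both arrays, open triangles are lower bounds and dashed lines mark 2-fold. FOS probes lie at 1.15 to 1.37 for pMA over PIP cells, at -1.33 to -0.91 for serotonin and at -0.90 to -0.47 for TNF-α, while EGR1 and EGR3 part under both stimuli.

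Other immediate-early genes were read from a list of 34, of which the array held 25 and a ratio was obtained for 23. Of the remaining EGR factors, EGR2 was not well above background in any condition, and EGR4 was well above background only with serotonin, at level -5.08 (log2) beside -5.12 for the faintest such spot on that array. In pMA 4 of the 23 were at least 2-fold lower than in PIP cells and none higher, beside 3.56% and 9.94% of all gene names. The list median was -0.37 against 0.12 for all gene names. PTGS2, the inducible cyclooxygenase, was 5.25-fold lower, MYC 3.13-fold lower, IER3, a stress-response gene, 2.15-fold lower, and PLK3, a kinase of the stress response, 2.05-fold lower. FOS and both EGR genes thus stood on the other side of 0 from these 4. PLK3 and IER3 no longer passed 2-fold with the spike-ins as the reference (-0.66 and -0.72), and PLK3 passed under 2 of 4 references. With the median as the reference 7 of the list, in place of 4, were at least 2-fold apart.

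With serotonin 4 of the 23 were at least 2-fold higher and none lower, beside 2.08% and 4.73% of all gene names. The list median was 0.14 against 0.01 for all gene names. PTGS2 was at level -0.30 (log2) in pMA, 2.99 with serotonin and 0.63 with TNF-α, 9.79-fold higher with serotonin. NR4A2, an orphan nuclear receptor induced by cAMP and cytokines, was at -2.70, 0.11 and -0.48, 7.01-fold higher with serotonin and 4.65-fold higher with TNF-α. IER3 was 3.41-fold and MYC 2.36-fold higher with serotonin. MAFF, a small MAF protein of the same leucine-zipper class, lay just under the cutoff at 0.98. With TNF-α NR4A2 was the 1 gene of the list past 2-fold, beside 3.56% of all gene names, and the list median was 0.17. These genes and FOS therefore lay on opposite sides of 0 after 12 h of serotonin. CYR61 and CTGF, secreted matricellular proteins known to follow SRF and YAP, were at -0.98 and -0.91 with serotonin and at 0.21 and 0.16 with TNF-α, short of 2-fold.

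**Figure D3:**
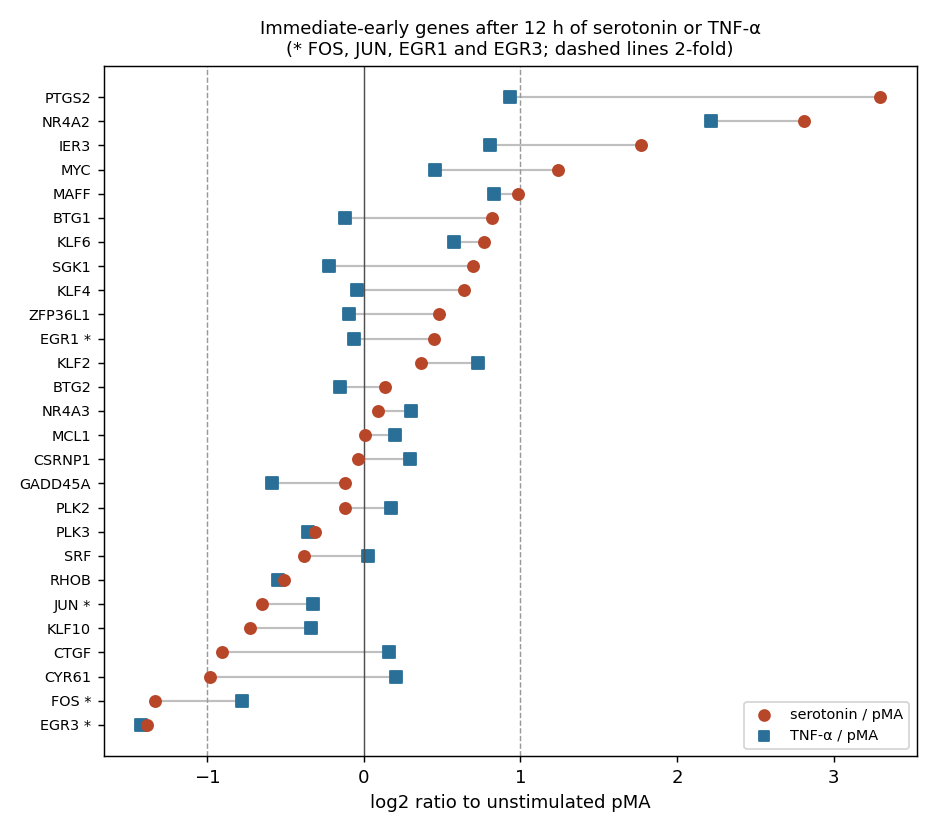
Log2 ratio to unstimulated pMA of immediate-early genes after 12 h of serotonin (circles) or TNF-α (squares), sorted by the serotonin ratio; stars mark FOS, JUN, EGR1 and EGR3 and dashed lines 2-fold. PTGS2 (3.29), NR4A2 (2.81), IER3 (1.77) and MYC (1.24) are at the top for serotonin and FOS (-1.33) and EGR3 (-1.38) at the bottom.

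Among leucine-zipper partners that can pair with FOS or JUN or compete for their sites, the array held 10 of 26, and 9 gave a ratio. In pMA 1 of the 9 was at least 2-fold higher than in PIP cells and none was lower, beside 9.94% and 3.56% of all gene names. No partner passed with serotonin or TNF-α, beside 6.82% and 3.56% of all gene names. ATF4, the stress-response factor, was at -0.54, -0.07 and -0.03 for pMA over PIP, serotonin and TNF-α. CREB1, which drives FOS in response to cAMP, was at -0.15, 0.08 and -0.08, and DDIT3 was at -0.83 with serotonin. List medians were -0.15, -0.05 and 0.12.

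Of the EGR partners, 3 of 4 were on the array. None passed 2-fold in pMA over PIP, with serotonin or with TNF-α, beside 13.5%, 6.82% and 3.56% of all gene names. NAB1, a corepressor that binds EGR1 and EGR3 and holds their activity down, was at -0.25 for pMA over PIP, 0.65 with serotonin and 0.79 with TNF-α. SP1, which shares GC-rich sites with EGR1, was at 0.44, 0.51 and 0.05, though its other probe gave -0.04 for pMA over PIP. WT1, a zinc-finger factor with a related binding site, was at -0.64, -0.29 and -0.14.

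Of the MAP kinase and SRF inputs, 14 of 33 were on the array. MAP3K1, a kinase upstream of JNK, which phosphorylates JUN, was 2.94-fold lower in pMA than in PIP cells. It was the 1 of 12 past 2-fold, beside 13.5% of all gene names. None passed with serotonin or TNF-α, beside 6.82% and 3.56% of all gene names. SRF, the factor that binds the FOS promoter, was at -0.20 for pMA over PIP, -0.38 with serotonin and 0.03 with TNF-α. Its other probe gave 0.56 for pMA over PIP and -0.44 with TNF-α, so that no direction can be given for these 2 comparisons. MKL1, its actin-regulated coactivator, was at 0.98 and -0.81 and -0.24. RPS6KA3, the ERK-activated kinase RSK2, was at 0.93, 0.57 and 0.14. The list medians, 0.11, 0.10 and 0.05, lay close to those of all gene names.

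Feedback inhibitors of the same kinases were thinly covered, with 4 of 19 on the array. SPRY2, which restrains receptor tyrosine kinase signalling, was at level 0.95 in PIP cells, 4.02 in pMA, 3.90 with serotonin and 3.56 with TNF-α, and was 8.39-fold higher in pMA than in PIP cells. DUSP6, the ERK phosphatase, was at 1.94, 2.46, 3.63 and 2.17, 2.25-fold higher with serotonin than in pMA. DUSP7 and NF1 stayed under 2-fold throughout. SPRY2 and DUSP6 were each the 1 of 4 past 2-fold in those comparisons, beside 13.5% and 6.82% of all gene names. No inhibitor passed with TNF-α, beside 3.56%. All 4 had ratios below 0 there (median -0.22), but DUSP7 (-0.16) and NF1 (-0.04) lay within about 1 technical SD of 0.

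Genes known as AP-1 targets were read next. Of 23 listed, the array held 19, and 16 to 17 gave a ratio. In pMA, 4 were at least 2-fold higher than in PIP cells and 1 lower, beside 9.94% and 3.56% of all gene names. The list median was 0.21. FABP4, the fatty acid carrier whose promoter holds an AP-1 site, was at least 8.48-fold higher. GJA1, a gap junction protein, was 2.57-fold higher, CCL2, a monocyte chemokine, 2.32-fold higher and CD44, a hyaluronan receptor, 2.22-fold higher, though the other CD44 probe gave -0.03 (log2). SPP1, osteopontin, was 2.24-fold lower. CCL2 and CD44 fell short of 2-fold with the median as the reference (0.87 and 0.80), and SPP1 with the spike-ins (-0.78).

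With serotonin, 2 AP-1 targets of 17 were at least 2-fold higher and 2 lower, beside 2.08% and 4.73% of all gene names. The list median was -0.19. MMP1, the interstitial collagenase that is the classical AP-1 reporter gene, was at level -4.10 in pMA, 0.24 with serotonin and -0.54 with TNF-α. It was 20.2-fold higher with serotonin and 11.8-fold higher with TNF-α. MMP1 rests on 1 probe, and its pMA level lay near the faintest spot well above background on that array (-4.64), which limits the size of both folds. IL1A, an inflammatory cytokine, was at -0.79, 3.001 and 1.49, 13.8-fold and 4.87-fold higher. FABP4 was 6.83-fold lower with serotonin. FOS was lower than in pMA on the same 2 arrays on which MMP1 and IL1A were higher.

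With TNF-α, 6 of 17 were at least 2-fold higher and none lower, beside 2.21% and 1.34% of all gene names. The list median was 0.50 against 0.01 for all gene names. Beside MMP1 and IL1A the 6 targets were SPP1 (4.24-fold), IL6 (3.09-fold), CCL2 (2.81-fold) and FABP4 (2.72-fold). Many of these genes are also known targets of NF-κB, so that the list is not specific to AP-1.

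EGR targets numbered 12 of 18 on the array. PLIN2, a lipid droplet protein, was 8.79-fold higher in pMA than in PIP cells and at 0.998 (log2) with serotonin, just under 2-fold. F3, tissue factor, was 2.96-fold lower with serotonin, and ICAM1, an endothelial and fibroblast adhesion molecule, was 3.40-fold higher with TNF-α. Each was the 1 gene of the list past 2-fold in its comparison, beside 13.5%, 6.82% and 3.56% of all gene names in that order. The list medians were -0.15, 0.06 and -0.10. PNPLA2, the lipase ATGL that EGR1 is known to repress, was at -0.28 in pMA over PIP, -0.06 with serotonin and -0.25 with TNF-α. VEGFA was at 0.93, 0.50 and 0.16, although its 3 probes ran from 0.13 to 0.93 for pMA over PIP. THBS1 was at -0.02, -0.35 and -0.01, although its 6 probes ran from -3.43 to 1.03 for pMA over PIP.

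**Figure D4:**
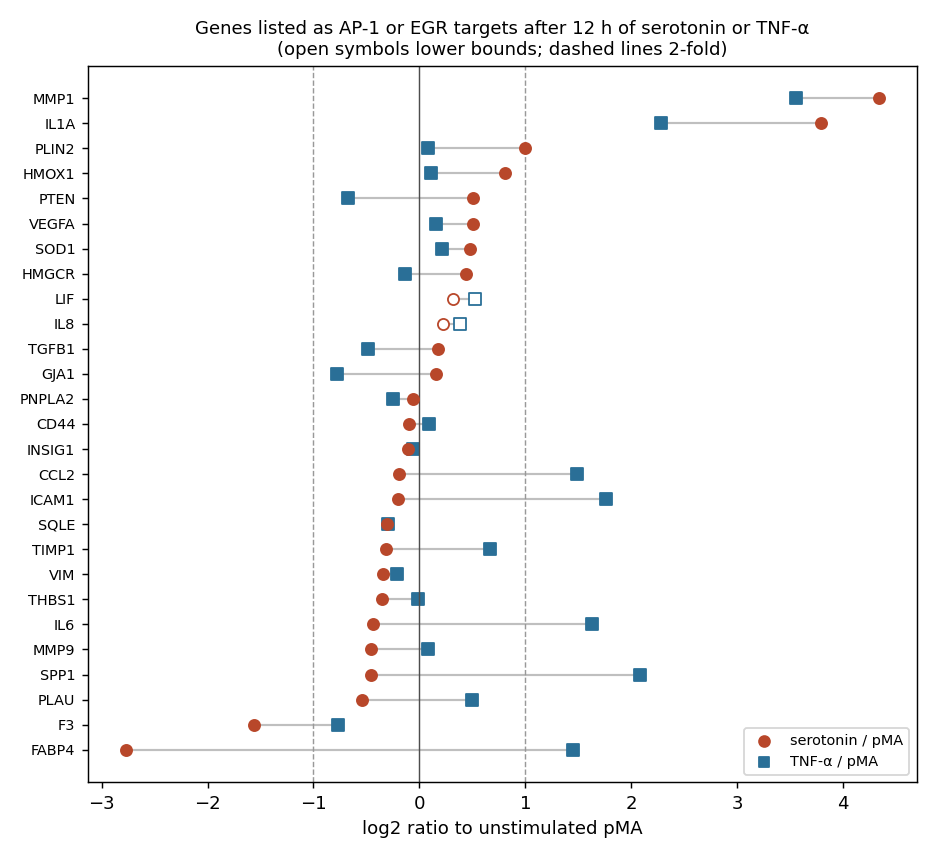
Log2 ratio to unstimulated pMA of most genes listed as AP-1 or EGR targets after serotonin (circles) or TNF-α (squares); open symbols are lower bounds and dashed lines mark 2-fold. MMP1 and IL1A lie far to the right under both stimuli, while FABP4, IL6 and SPP1 lie left of 0 with serotonin and right with TNF-α.

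Over the 4 arrays, the gene symbols with the pattern closest to FOS were sought among 1167 that were well above background on all arrays and spanned at least 1 log2 unit. CASP4, an inflammatory caspase, had the smallest root mean square difference from FOS, 0.12 (log2), followed by SEMA6D, a transmembrane semaphorin, and SERINC2, of the serine incorporator family, both at 0.13. CASP4 was at 1.11 for pMA over PIP, -1.15 with serotonin and -0.46 with TNF-α, beside 1.37, -1.33 and -0.78 for FOS. With 4 points such closeness is a description only. JUN spanned less than 1 unit, and EGR1 and EGR3 were not well above background in PIP cells, so that no like genes were sought for them.

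**Figure D5:**
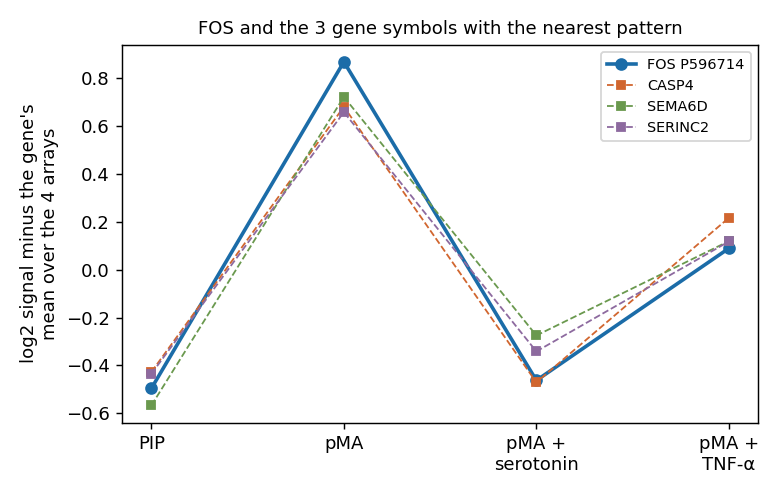
Log2 signal of FOS and of the 3 nearest gene symbols on the 4 arrays, each minus its own mean. All 4 lines peak in pMA and are lower with TNF-α and lower still with serotonin.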

How the data were processed

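Total RNA pooled within each condition (200 ng) was labelled with Cy3 and read in 1 color on 4 arrays of 1 slide. The methods name in places a mouse array read by GenePix and a two-color array. The deposited intensities are those of a porcine array and came, per the labels, from Agilent Feature Extraction 10.7.3.1, which subtracted the background and flagged each spot (other columns: well above background, saturated, outlier). The authors' value table holds the same intensities divided by 1 constant per array, linear and not centred.

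From the processed intensities, control and outlier spots were removed, log2 was taken and the log2 of each array's 75th percentile was subtracted (Python 3.11.15, pandas 2.3.3). No member spot was saturated or an outlier. Where a gene had several probes, the one whose level averaged highest across the 4 arrays stood for it. A probe well above background on 1 array of a pair gave a bound, the dim array being set to the higher of its own reading and the faintest spot well above background there. Normexp correction (offset 50) used limma 3.58.1 in R 4.3.3.

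With 1 array per condition no test between conditions was made. The number of arrays limits the precision. The 2-fold cutoff is that of the study. Members and gene lists were chosen with earlier results of these data known. Named from each of 7 lists were the genes at least 2-fold apart, up to 4 in each direction per comparison, measured ratios before bounds, with other list members named for their role. A few of the genes and sequences this covers are not reported here. NR4A3, CTGF and ICAM1 were found through RefSeq accessions. Alternatives were quantile, median and spike-in scaling (224 E1A spots, chosen after the data were seen), normexp, no filter on dim probes, a filter on all 4 arrays, the median over probes, a 4-fold cutoff and the authors' values.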

Additional observations from a re-analysis of the deposited data

Results flagged for a closer look

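Of the members and the genes named from the lists, 3 AP-1 targets lay on opposite sides of 0 under the 2 stimuli by more than 2 technical SD each. FABP4 had a log2 ratio to unstimulated pMA of -2.77 with serotonin and 1.45 with TNF-α, and its probes with a ratio ran from -3.13 to -2.21 and from 1.04 to 1.61. IL6 was at -0.44 with serotonin and 1.63 with TNF-α, with both probes on the same side. SPP1 was at -0.46 and 2.08, with all 4 probes on the same side. The difference between the stimuli was not tested, since each has 1 array and both share the unstimulated one.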

How the results depend on the processing

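The counts of members at least 2-fold apart were 3 for pMA over PIP cells, 2 for serotonin and 1 for TNF-α. They were the same under quantile, median and spike-in scaling, with no filter on dim probes, with the median over probes and with the authors' values. They were 1, 1 and 0 after normexp correction and with the filter on all 4 arrays, which leaves out EGR1 and EGR3, and 0, 0 and 0 at a 4-fold cutoff. FOS kept its direction in all 9 settings of each comparison. JUN, pMA over PIP cells, turned to 0.10 with the spike-ins and 0.02 with the median over probes. Of 42 list counts under quantile and median scaling, 35 stayed within 1.5 times. The others were, in pMA over PIP cells, EGR targets at 2 under both, and with the median MAPK and SRF inputs at 2, AP-1 partners at 3 and other immediate-early genes at 7; and with serotonin EGR targets at 2 under both. Under the 4 references all 29 ratios named from the lists kept their direction and 24 stayed past 2-fold. The cause of these shifts was not tested. No paired analysis was possible because each condition has 1 sample and the groups share fewer than 2 replicate numbers. Low signal limits EGR1, EGR3 and the dimmest FOS probe.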
